A study of Homo sapiens with 18 samples.

Results

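The genes described are 10 canonical transcriptional targets of p53, taken as the rows of the expression table whose Ensembl identifiers map to CDKN1A, MDM2, BAX, BBC3, FAS, GADD45A, SESN1, ZMAT3, TP53INP1 and RRM2B. All 10 were found among the 60483 genes listed. A mean of at least 1 TPM, the unit of transcript abundance scaled for transcript length and library total, over the 18 samples was reached by 9 of them, and these 9 entered the tests together with the other genes above that level, 13789 in all. TP53INP1 was the low member, with 0.18 to 0.44 TPM across the samples, and was not tested.

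The samples were OVCAR5 cells, an established human ovarian cancer line, grown for 24 h in medium with 5% fatty-acid-free albumin, which every condition shared. Stearate is a saturated fatty acid, and stearoyl-CoA desaturase 1, the enzyme that CAY10566 inhibits, converts it to oleate, a monounsaturated fatty acid. The 6 conditions, each with 3 samples, were DMSO, 1 µM CAY10566, 50 µM stearate+DMSO, 50 µM stearate+1 µM CAY10566, 50 µM oleate+DMSO and 50 µM oleate+1 µM CAY10566. Fatty acids were compared over groups of 6 samples, in which control means no added fatty acid, with DMSO or CAY10566. The study asked how stearate harms these cells and whether DNA damage and apoptosis accompany it, and the p53 targets are genes that respond to such damage.

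p53 is a transcription factor that is held at a low level by the ubiquitin ligase MDM2 and accumulates after DNA damage and other stresses. It binds a response element made of paired decamers and switches on genes that stop the cell cycle, repair DNA, lower oxidative stress or trigger apoptosis, and it switches on MDM2 itself, which closes a negative feedback loop. Several of its targets also answer to other factors, such as ATF4, the E2F factors and the early growth response factors, so that their transcripts can move without p53.

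The response elements are shown because they are the sequence feature that makes these genes a family. Start sites came from the RefSeq promoter table on GRCh38, which matched 7 of the 10 members and had no entry for GADD45A, TP53INP1 and RRM2B. The sequence within 3000 bases of each start was searched on GRCh38 for p53 response elements, meaning 2 adjoining decamers of 3 purines, C, 2 bases that are A or T, G and 3 pyrimidines, with both C and both G required. The pattern reads the same on either strand. The best match of each gene is printed on the strand of the gene, with the 20 bases of the match in capitals and 5 flanking bases on each side.
ZMAT3: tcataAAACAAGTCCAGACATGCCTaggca
CDKN1A: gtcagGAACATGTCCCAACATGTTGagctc
MDM2: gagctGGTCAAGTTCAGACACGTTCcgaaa
FAS: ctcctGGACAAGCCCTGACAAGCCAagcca
BAX: cccccGGGCAGGCCCGGGCTTGTCGcccgc
BBC3: cgcgcCTGCAAGTCCTGACTTGTCCgcggc
SESN1: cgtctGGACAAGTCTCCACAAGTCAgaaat

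ZMAT3 held a match with 0 mismatches at chr3:179070188-179070207 on the minus strand, in an intron of the gene, and 0.109% of the 10104 tested genes with a start in the table held such a match. The match of CDKN1A had 2 mismatches and lay 2265 bases before the RefSeq start, at chr6:36676449-36676468. It spans the start of the gene in GENCODE release 44, at chr6:36676460. Its end overlaps an untranslated exon of a longer transcript there. MDM2 had 2 mismatches at chr12:68808923-68808942, in an intron. FAS had 2 at chr10:88991309-88991328, inside a coding exon of at least 1 annotated transcript, and BAX had 2 at chr19:48955213-48955232 in an exon annotated as noncoding. BBC3 had 3 mismatches at chr19:47231320-47231339 in an intron, on the minus strand, and SESN1 had 3 at chr6:109009018-109009037 in an intron, on the minus strand. Matches with at most 2 mismatches were present in 5 of the 7 members searched and in 5.31% of all 10104 genes, and matches with at most 3 in all 7 members and in 29% of all genes. Members with several starts were searched over more sequence than the median of 6001 bases. These were SESN1 (12566 bases), ZMAT3 (8468), MDM2 (6853) and FAS (6634). These matches are descriptions of sequence, and no binding of p53 was measured in these samples.

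All 8 epithelial markers had a mean above 1 TPM, with EPCAM at 331.4 TPM and KRT8 at 895.4 TPM. Of 7 serous ovarian markers 3 were above 1 TPM, with PAX8 at 11.8 TPM, FOLR1 at 3.49 TPM, WT1 at 0.126 TPM and MUC16 at 0.632 TPM. Of 5 blood and endothelial markers only CD68 was above 1 TPM, and PTPRC, which defines leukocytes, stood at 0.00556 TPM. Of 6 intestinal epithelial markers 2 were above 1 TPM, CDX2 at 3.76 TPM and KRT20 at 1.69 TPM, and of 7 mesenchymal markers 3 were, VIM at 42.2 TPM, ZEB1 at 5.84 TPM and COL1A1 at 5.04 TPM. The summed epithelial markers moved with the treatment, from 3184 to 3324 TPM in the controls, 2577 to 2786 TPM with stearate and 2895 to 3232 TPM with oleate, and the part of this shift in the results that follow was not tested. With stearate 5 of the 8 fell, where 5.97% of all tested genes did, led by KRT18 (-0.44), KRT7 (-0.35) and KRT19 (-0.29) on the log2 scale, and with oleate, where 2.7% of all tested genes fell, 3 did, KRT18 (-0.16), CLDN4 (-0.15) and KRT19 (-0.13). Between the fatty acids 5 were lower with stearate, like 14.3% of all tested genes, led by KRT7 (-0.37), CDH1 (-0.29) and KRT18 (-0.28). Of the other markers, KRT20 (-0.41) and VIM (-0.14) fell with stearate, and KRT20 (-0.35) and CD68 (-0.27) were lower with stearate than with oleate. The table holds no read counts, so the depth is unknown and precision rests on the spread between samples. A single control, CAY10566 replicate 3, stood apart from the other controls: without it, 3696 genes differed between stearate and control instead of 2679, and 4714 between oleate and control instead of 3541. Where a call on a member changed without it, both values are given.

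Members differed widely in level. Averaged over all samples, GADD45A stood at 202.4 TPM, BAX at 166.7 TPM and CDKN1A at 142.0 TPM. BBC3 (43.7 TPM), MDM2 (28.6 TPM), RRM2B (12.35 TPM) and FAS (9.33 TPM) were intermediate, and ZMAT3 (3.10 TPM) and SESN1 (2.19 TPM) were low. TPM is scaled by transcript length, so these levels can be set side by side.

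**Figure D1:**
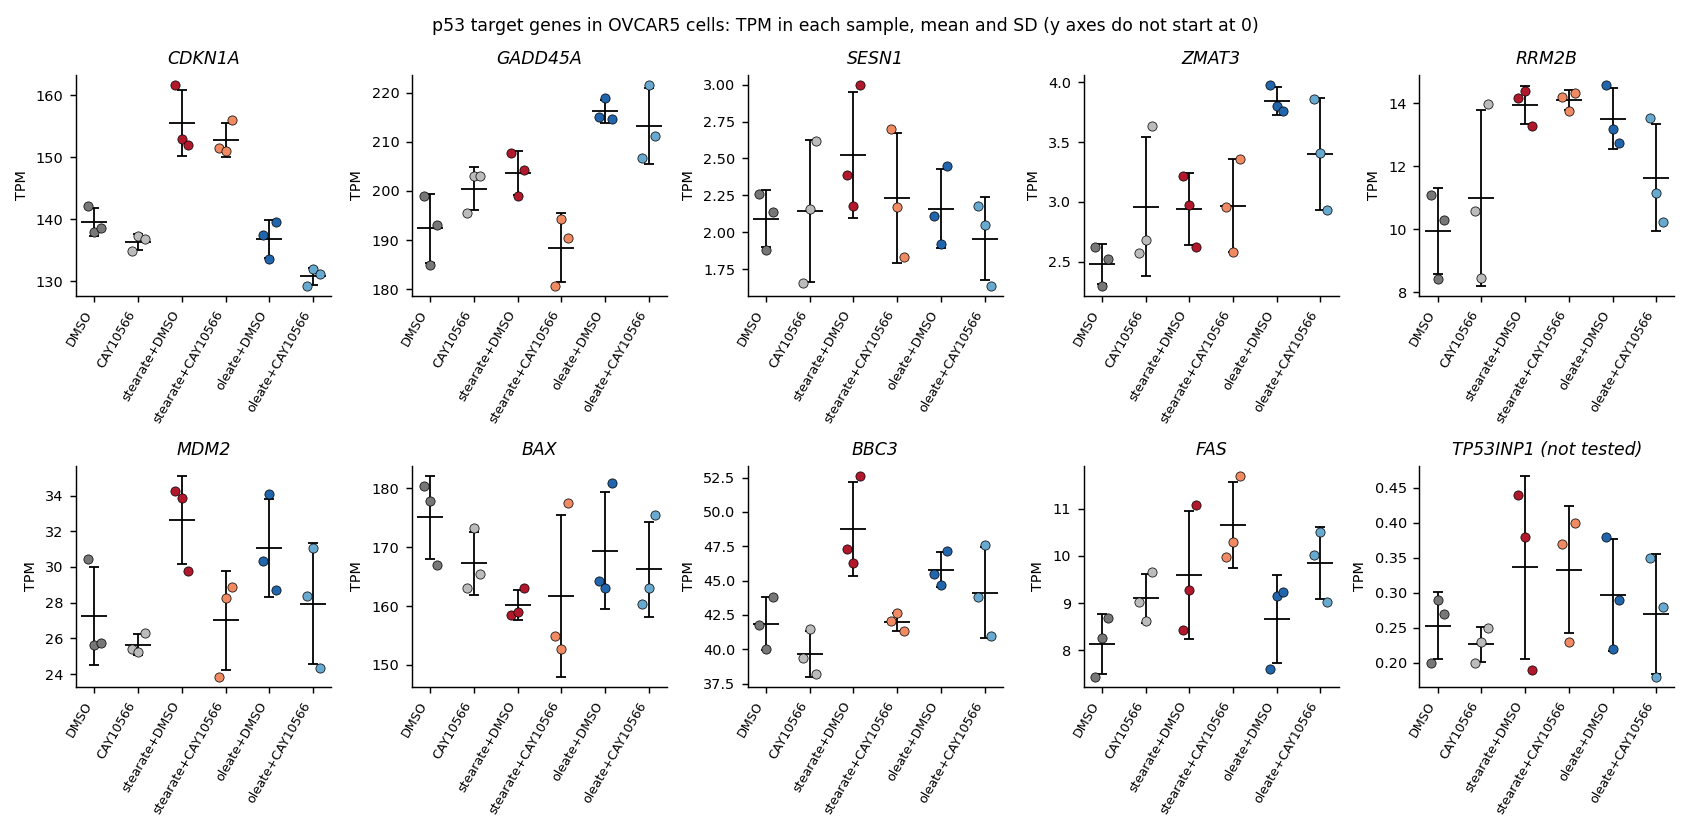
TPM of each of the 10 genes (y axis, which does not start at 0) in each of the 6 conditions (x axis), with 3 points per condition for the samples and a bar and whiskers for the mean and SD. The 6 CDKN1A values with stearate, 151.02 to 161.74 TPM, lie above all 12 others, and the RRM2B value of 13.97 TPM in control CAY10566 replicate 3 lies among the stearate values.

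With stearate, CDKN1A and RRM2B rose against control and the other 7 tested members did not pass the test. The rises were 1.12-fold for CDKN1A and 1.33-fold for RRM2B. Tests used limma on log2(TPM + 1) across all tested genes, with Benjamini-Hochberg adjustment and a false discovery rate (FDR) of 0.05, and 13.5% of all tested genes were called higher and 5.97% lower in this comparison. With the fold limit of the study added to the FDR, RRM2B was the 1 member called, against 3.46% of all genes called higher by that rule, and its rise of 1.21-fold was under that limit after the length and GC trend, meaning the dependence of values on transcript length and GC content fitted per sample, was removed. The median log2 fold change was 0.15 over the 9 members and 0.06 over all genes.

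CDKN1A (ENSG00000124762; chr6:36676460-36687337, plus strand) encodes p21, an inhibitor of cyclin-dependent kinases that halts the cell cycle. It measured 142.08, 137.87 and 138.56 TPM with DMSO and 134.89, 137.32 and 136.81 TPM with CAY10566. With stearate+DMSO it measured 161.74, 153.01 and 151.97 TPM, and with stearate+CAY10566 151.54, 151.02 and 155.97 TPM. Every stearate sample was above every control sample, a separation found in either direction for 7.79% of all genes. The group means were 137.9 ± 2.39 TPM in the controls and 154.2 ± 4.09 TPM with stearate (SD, n = 6 each). The log2 fold change was 0.16 ± 0.02 (SE), with an adjusted p of 0.00022 by limma. The call held in all 29 alternative fits, down to 0.10 when TPM was rescaled by size factors (adjusted p = 0.011 by limma). In the DMSO samples alone the log2 fold change was 0.16 (adjusted p = 0.020), and in the CAY10566 samples alone it was 0.16 (adjusted p = 0.044).

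RRM2B encodes the p53-inducible small subunit of ribonucleotide reductase, which supplies deoxynucleotides for DNA repair and for mitochondrial DNA. Its values were 11.1, 8.42 and 10.3 TPM with DMSO and 10.57, 8.45 and 13.97 TPM with CAY10566. They were 14.18, 14.39 and 13.27 TPM with stearate+DMSO and 14.21, 13.75 and 14.33 TPM with stearate+CAY10566. The stearate samples lay in a narrow band above 5 of the 6 controls, and CAY10566 replicate 3 was the control inside that band. Means were 10.5 ± 2.05 TPM and 14.02 ± 0.431 TPM (SD, n = 6 each), which gave an estimate on the log2 scale of 0.41 ± 0.10 (SE; adjusted p = 0.0066 by limma). Without CAY10566 replicate 3 the log2 fold change was 0.49 (adjusted p = 0.00047). The rise held in the DMSO samples alone at 0.46 (adjusted p = 0.020). In the CAY10566 samples alone, 3 against 3, it was 0.36 with an adjusted p of 0.32, and this was the 1 of 29 alternatives in which the FDR call was lost. The lowest estimate over the alternatives was 0.27, after the length and GC trend was removed (adjusted p = 0.019).

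ZMAT3, an RNA-binding zinc finger protein, and SESN1, a sestrin that restrains mTORC1 and oxidative stress, had log2 fold changes of 0.09 (adjusted p = 0.49) and 0.11 (adjusted p = 0.44) with stearate. GADD45A, a small stress protein that binds PCNA, p21 and MAP3K4, was at -0.0034 ± 0.03 (SE; adjusted p = 0.95), with a 95% interval from -0.07 to 0.06. Among the apoptosis genes, FAS, a death receptor, had a log2 fold change of 0.21 (adjusted p = 0.073) and BBC3, the BH3-only protein PUMA, 0.15 (adjusted p = 0.062). Both passed the threshold when CAY10566 was added to the model as a covariate, at adjusted p = 0.042 and 0.028, in a fit that called 19.2% of all genes. FAS was also called without CAY10566 replicate 3 (0.24, adjusted p = 0.038), but was at 0.08 after the length and GC trend was removed (adjusted p = 0.57) and at 0.15 after size factor scaling (adjusted p = 0.19). BBC3 was called at 0.22 after the length and GC trend was removed (adjusted p = 0.012) and was at 0.09 after size factor scaling (adjusted p = 0.28). By arm it was called in the DMSO samples alone (0.21, adjusted p = 0.038) and was at 0.08 in the CAY10566 samples alone (adjusted p = 0.58). BAX, the pore-forming effector of mitochondrial apoptosis, was the member with the lowest estimate, -0.09 ± 0.04 (SE; adjusted p = 0.12), and it was called lower after size factor scaling at -0.15 (adjusted p = 0.026). MDM2, the ligase that degrades p53, was at 0.16 with an interval from -0.01 to 0.33 (adjusted p = 0.18), and at 0.02 after the length and GC trend was removed (adjusted p = 0.86).

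With oleate, GADD45A and ZMAT3 were the members called higher than control, and 0 members were called lower. The rises were 1.093-fold and 1.246-fold, and both fell short of the fold limit of the study. Among all tested genes 23% were called higher and 2.7% lower, so that 2 of 9 members is close to the share of all genes. The median log2 fold change was 0.13 over the 9 members and 0.09 over all genes.

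GADD45A (ENSG00000116717; chr1:67685201-67688334, plus strand) measured 199.06, 184.96 and 193.06 TPM with DMSO and 195.47, 202.99 and 203.01 TPM with CAY10566. With oleate+DMSO it measured 215.06, 218.99 and 214.73 TPM, and with oleate+CAY10566 206.73, 221.7 and 211.3 TPM. All 6 oleate samples were above all 6 controls, a separation seen in either direction for 4.06% of all genes. Means were 196.4 ± 6.89 TPM and 214.8 ± 5.34 TPM (SD, n = 6 each), and the log2 fold change was 0.13 ± 0.03 (SE; adjusted p = 0.0091 by limma). Size factor scaling, which brings the median over all genes to about 0, reduced the estimate to 0.03 and ended the call (adjusted p = 0.54). In the CAY10566 samples alone the estimate was 0.09 (adjusted p = 0.52), in a fit that called 4 genes in all.

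ZMAT3 (ENSG00000172667; chr3:178960121-179072215, minus strand) was at 2.62, 2.3 and 2.52 TPM with DMSO and at 2.57, 2.68 and 3.63 TPM with CAY10566. With oleate+DMSO it was at 3.98, 3.8 and 3.76 TPM, and with oleate+CAY10566 at 3.86, 3.41 and 2.93 TPM. Of the oleate samples 4 were above every control, and control CAY10566 replicate 3 was again the highest control. The log2 fold change was 0.32 ± 0.09 (SE; adjusted p = 0.014 by limma), and 0.38 without CAY10566 replicate 3 (adjusted p = 0.0011). It was 0.48 in the DMSO samples alone (adjusted p = 0.0082) and 0.16 in the CAY10566 samples alone (adjusted p = 0.67). Removing the length and GC trend took it to 0.10 and ended the call (adjusted p = 0.30).

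RRM2B was at 14.59, 13.17 and 12.75 TPM with oleate+DMSO and at 13.54, 11.15 and 10.23 TPM with oleate+CAY10566. The oleate+DMSO samples were all above the DMSO samples, a separation found in either direction for 42.8% of all genes, whereas the oleate+CAY10566 samples overlapped both control conditions. Its log2 fold change of 0.25 ± 0.10 (SE) had an adjusted p of 0.062, and without CAY10566 replicate 3 it was 0.33 with an adjusted p of 0.0045. It was also called among genes with a mean of at least 5 TPM (0.25, adjusted p = 0.0495) and without oleate+CAY10566 replicate 3 (0.31, adjusted p = 0.024). After the length and GC trend was removed it was 0.10 (adjusted p = 0.42), and after size factor scaling 0.16 (adjusted p = 0.21). In the DMSO samples alone it was 0.41 (adjusted p = 0.017), and in the CAY10566 samples alone 0.09 (adjusted p = 0.84). The difference between these estimates, tested as the oleate by CAY10566 interaction, was -0.32 with an adjusted p of 0.56.

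CDKN1A did not rise with oleate. Its values were 137.4, 133.55 and 139.6 TPM with oleate+DMSO and 129.28, 131.99 and 131.11 TPM with oleate+CAY10566, and 4 of the 6 lay below every control. The log2 fold change was -0.04 ± 0.02 (SE; adjusted p = 0.21), and it reached -0.14 after size factor scaling (adjusted p = 0.0028) and -0.07 after the length and GC trend was removed (adjusted p = 0.048). The remaining members, MDM2 at 0.15, BBC3 at 0.14, FAS at 0.09, SESN1 at -0.03 and BAX at -0.03, were not called, with adjusted p from 0.068 for BBC3 to 0.87 for SESN1. BBC3 passed with CAY10566 as a covariate (adjusted p = 0.032), without stearate+DMSO replicate 3 (adjusted p = 0.034) and without oleate+CAY10566 replicate 3 (0.16, adjusted p = 0.032), but was at 0.04 after size factor scaling (adjusted p = 0.66). After the length and GC trend was removed MDM2 turned to -0.05 (adjusted p = 0.68) and FAS to -0.17 (adjusted p = 0.23), and after size factor scaling they were at 0.05 and 0.00084.

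**Figure D2:**
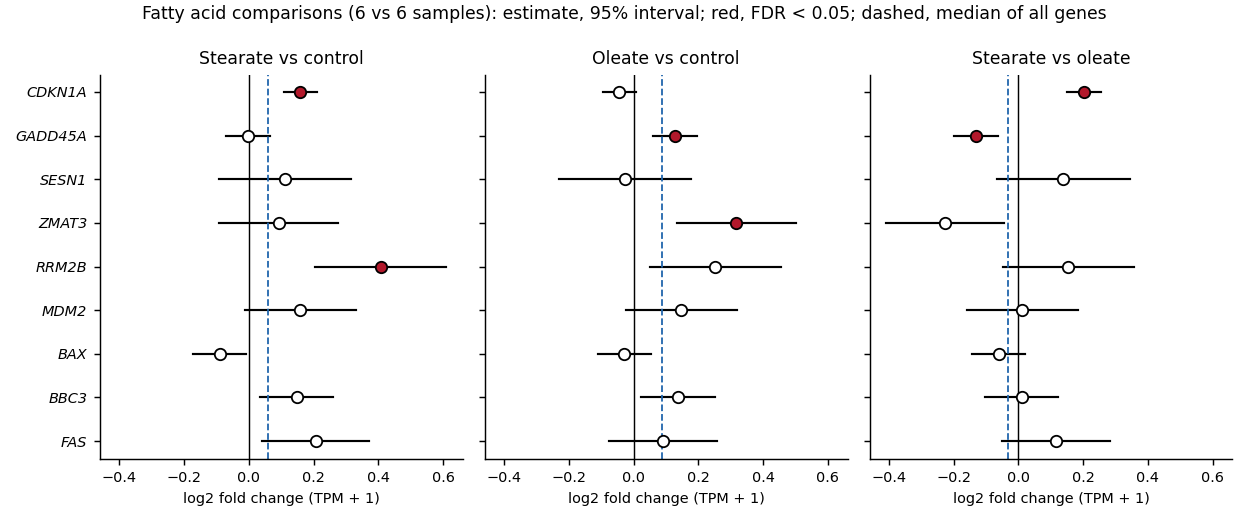
Log2 fold change on log2(TPM + 1) (x axis) of the 9 tested genes (y axis) for stearate against control, oleate against control and stearate against oleate, 6 against 6 samples each; circles are estimates, lines 95% intervals, red circles FDR under 0.05, and the dashed line the median of all genes. CDKN1A is called with stearate against control (0.16) and against oleate (0.20), while GADD45A is called with oleate against control (0.13) and is lower with stearate than with oleate (-0.13).

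Set directly against each other, the fatty acids differed for CDKN1A and GADD45A, in opposite directions. CDKN1A was higher with stearate than with oleate by 0.20 ± 0.02 on the log2 scale (SE; 1.15-fold, adjusted p = 9.5e-06 by limma), and GADD45A was lower by 0.13, an estimate of -0.13 ± 0.03 (SE; adjusted p = 0.0072). Over all genes 6.85% were called higher with stearate and 14.3% lower, and the 2 groups did not overlap for 10.2% of genes. CDKN1A was the 1 tested member without overlap: the lowest stearate sample measured 151.02 TPM and the highest oleate sample 139.6 TPM. This call held in all 29 alternatives. GADD45A ranged from 180.71 to 207.76 TPM with stearate, and 5 of the 6 stearate samples were below every oleate sample. Its call held in 27 of 29 alternatives and was lost in the DMSO samples alone (-0.09, adjusted p = 0.13) and in the CAY10566 samples alone (-0.18, adjusted p = 0.055). ZMAT3 was lower with stearate, at -0.23, but was not called (adjusted p = 0.073). It was called without CAY10566 replicate 3 (-0.23, adjusted p = 0.033), without oleate+CAY10566 replicate 3 (-0.27, adjusted p = 0.033) and without a variance trend (adjusted p = 0.049). FAS was at 0.12 and was not called (adjusted p = 0.32). It was called in 2 of 29 alternatives, the fits with the length and GC trend removed (0.25, adjusted p = 0.047 without the replicate block). After size factor scaling it was at 0.15 (adjusted p = 0.18). RRM2B, which was called against control for stearate and not for oleate, had a difference between the fatty acids that did not pass the test (0.15, 95% interval -0.05 to 0.36, adjusted p = 0.28).

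CAY10566 changed no member past the threshold. Over 9 against 9 samples, adjusting for fatty acid, limma called 0 of 13789 genes (0%), while 748 genes had an unadjusted p under 0.05. Within each fatty acid group, 3 against 3, the shares of genes called were 0% in the absence of fatty acid (1399 by unadjusted p under 0.05), 0.0145% with stearate (761) and 0% with oleate (651), and 0 members were among them. The interaction of stearate with CAY10566 was called for 0.00725% of genes (1290 at an unadjusted p under 0.05) and that of oleate with CAY10566 for 0% (1415), again with 0 members.

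MDM2 and BBC3 had the lowest estimates among the members. MDM2 was at 30.43, 25.64 and 25.72 TPM with DMSO, 25.41, 25.26 and 26.31 TPM with CAY10566, 34.26, 33.84 and 29.79 TPM with stearate+DMSO and 23.85, 28.29 and 28.9 TPM with stearate+CAY10566. With oleate it was at 30.36, 34.11 and 28.74 TPM with DMSO and 28.39, 31.08 and 24.34 TPM with CAY10566. For MDM2 the arms separated in the stearate samples, as they did in either direction for 11.6% of all genes, and overlapped in the other settings. The overall log2 fold change of -0.17 had an adjusted p of 0.85 by limma (unadjusted 0.0087). BBC3 was at 47.33, 46.3 and 52.63 TPM with stearate+DMSO and 42.03, 42.64 and 41.32 TPM with stearate+CAY10566. Those arms also did not overlap, against the same 11.6% of all genes, with a log2 fold change of -0.21 ± 0.06 (SE) and an adjusted p of 0.65. Without fatty acid BBC3 was at 41.74, 39.99 and 43.83 TPM with DMSO and 39.34, 41.47 and 38.17 TPM with CAY10566. With oleate it was at 45.46, 44.71 and 47.19 TPM with DMSO and 43.8, 47.56 and 40.97 TPM with CAY10566, and in both settings the arms overlapped.

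FAS was the member with the highest estimate under CAY10566, at 0.15 ± 0.06 on the log2 scale (SE; adjusted p = 0.85, unadjusted 0.014). It measured 7.44, 8.27 and 8.69 TPM with DMSO and 9.03, 8.62 and 9.65 TPM with CAY10566. With stearate it measured 8.43, 9.28 and 11.08 TPM with DMSO and 9.97, 10.29 and 11.69 TPM with CAY10566. The arms overlapped in both settings, as they did with oleate, where 7.6, 9.15 and 9.24 TPM with DMSO stood against 10.02, 10.51 and 9.02 TPM with CAY10566. GADD45A with stearate was at 207.76, 198.93 and 204.31 TPM with DMSO and at 180.71, 194.26 and 190.39 TPM with CAY10566, again without overlap, like the 11.6% of all genes, and its stearate by CAY10566 interaction was -0.17 (adjusted p = 0.48). CDKN1A separated in the other settings, where the CAY10566 samples were the lower ones. Without fatty acid 137.87 to 142.08 TPM with DMSO stood against 134.89 to 137.32 TPM with CAY10566, a separation found for 14.7% of all genes, and with oleate 133.55 to 139.6 TPM stood against 129.28 to 131.99 TPM, as for 9.88% of all genes. The log2 fold changes were -0.03 (adjusted p = 0.72) and -0.06 (adjusted p = 0.98). The intervals for CDKN1A (-0.08 to -0.0022), GADD45A (-0.08 to 0.03) and BAX (-0.09 to 0.04) over all samples were narrow, whereas those of SESN1 (-0.24 to 0.10), ZMAT3 (-0.14 to 0.17) and RRM2B (-0.20 to 0.15) were wider.

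**Figure D3:**
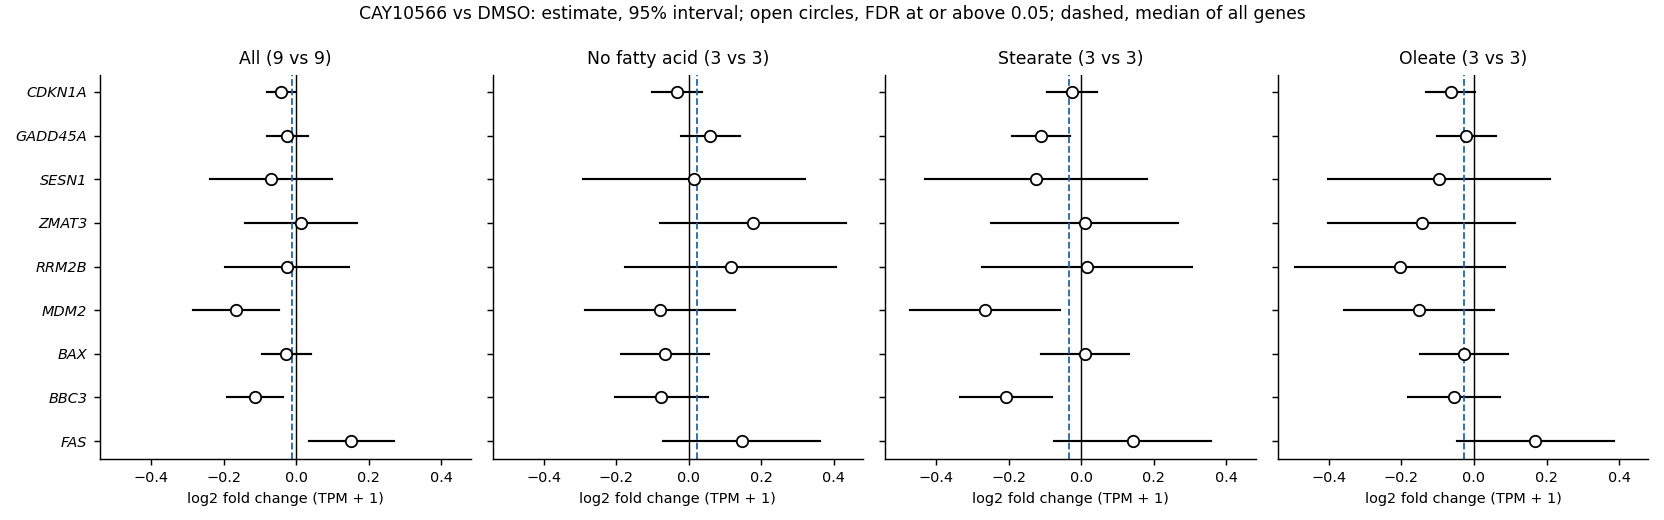
Log2 fold change of CAY10566 against DMSO on log2(TPM + 1) (x axis) for the 9 tested genes (y axis), over all samples and within each fatty acid group, with circles for estimates and lines for 95% intervals; the dashed line is the median of all genes. All circles are open because 0 members had an FDR under 0.05, and the lowest estimates are those of MDM2 (-0.27) and BBC3 (-0.21) with stearate.

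Across all 6 conditions at the same time, limma's moderated F test called CDKN1A (adjusted p = 0.00028), GADD45A (adjusted p = 0.0071) and BBC3 (adjusted p = 0.022), 3 of 9 members against 24% of all genes. After size factor scaling CDKN1A was the 1 member still called, against 20.9% of all genes. Without CAY10566 replicate 3, when 31.8% of all genes were called, the adjusted p went from 0.074 to 0.026 for ZMAT3 and from 0.051 to 0.0058 for RRM2B, so that both were called as well. The members called in these fits did not share a single pattern. CDKN1A was highest in the 2 stearate conditions, GADD45A and ZMAT3 in the 2 oleate conditions, and RRM2B in the stearate conditions and oleate+DMSO. BBC3 was highest with stearate+DMSO. The F test did not call MDM2 (adjusted p = 0.084), SESN1 (0.73), FAS (0.11) or BAX (0.43). For these members no difference between conditions was shown. Their highest means were with stearate+DMSO for MDM2 and SESN1, stearate+CAY10566 for FAS and DMSO for BAX.

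**Figure D4:**
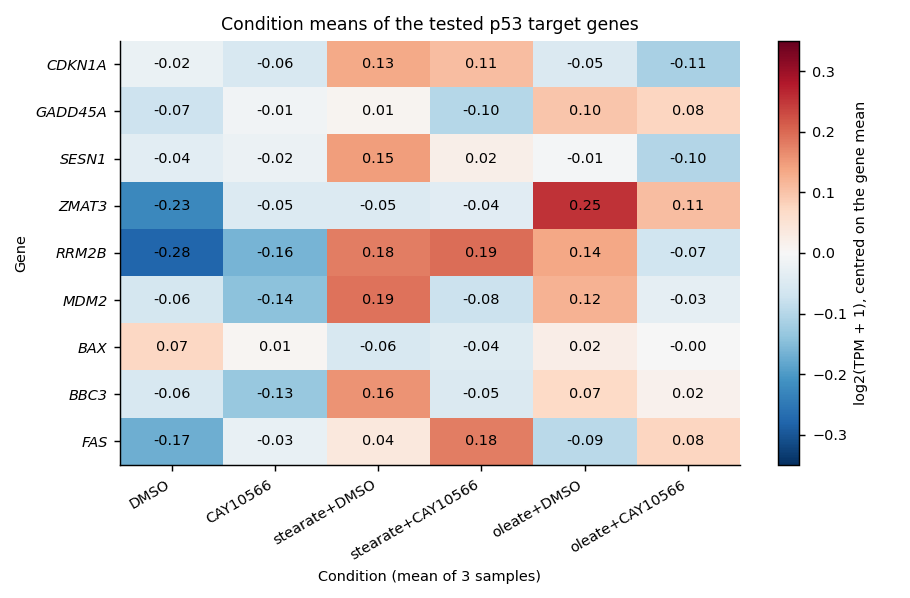
Mean of 3 samples on log2(TPM + 1), centred on each gene's mean over the 6 conditions, for the 9 tested genes (rows) and the 6 conditions (columns); red is higher and blue lower than the gene's own mean. CDKN1A runs from -0.11 with oleate+CAY10566 to 0.13 with stearate+DMSO, and ZMAT3 from -0.23 with DMSO to 0.25 with oleate+DMSO.

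The spread of the condition means was largest for ZMAT3 (0.48 on the log2 scale) and RRM2B (0.47), followed by FAS (0.35), MDM2 (0.33), BBC3 (0.29), SESN1 (0.25), CDKN1A (0.25), GADD45A (0.20) and BAX (0.13). The SE of the fatty acid estimates ran from 0.02 for CDKN1A to 0.10 for SESN1 and RRM2B. The 5 genes whose 6 centred condition means lay nearest to those of ZMAT3 were NEMF, UBP1, PAK2, WDR36 and CUTALP. Their root mean square difference was between 0.013 and 0.019 on the log2 scale, over 6 conditions. Any gene has nearest genes, and ZMAT3 itself was not called by the F test over all samples (adjusted p = 0.074). Shared regulation was not tested.

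Regulators and cofactors of p53 were examined next. Of the 18 tested genes of this list, 2 rose and 1 fell with stearate, and 8 rose and 1 fell with oleate. Among all tested genes 13.5% rose and 5.97% fell with stearate, and 23% rose and 2.7% fell with oleate. After size factor scaling the counts in the list were 1 and 2, and 3 and 1, while among all genes 7.92% rose and 10.2% fell with stearate and 9.07% rose and 9.12% fell with oleate. Between the fatty acids the shares of all genes after this scaling were 10.4% higher and 11.5% lower with stearate. The counts in the lists that follow stand against the same shares. EP300, a histone acetyltransferase and p53 coactivator, rose with both, by 0.38 with stearate and 0.46 with oleate on the log2 scale. TP53BP1, which acts at DNA breaks, rose by 0.23 with stearate as deposited but was not called after size factor scaling (adjusted p = 0.066), and PPP1R13L, an inhibitor of p53, had a log2 fold change of -0.20. With oleate HIPK2, a kinase that phosphorylates p53, rose by 0.62 and MDM4, the relative of MDM2 that masks the p53 activation domain, by 0.52. MDM4 lost its call after size factor scaling (0.44, adjusted p = 0.057). PPM1D, a phosphatase that turns the p53 response off and is itself a p53 target, was at 0.25 with stearate (adjusted p = 0.075) and 0.17 with oleate (adjusted p = 0.21). Between the fatty acids HIPK2 (-0.44) and USP7 (-0.14), a deubiquitinase of MDM2, were lower with stearate. The list median was 0.16 with stearate and 0.15 with oleate, beside 0.06 and 0.09 over all genes.

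Beyond the 10 members, 40 further p53 targets were listed and 32 tested. With stearate 9 rose and 2 fell, and with oleate 8 rose and 1 fell, the rises with oleate being close to the 23% of all genes. After size factor scaling these counts were 7 and 4, and 4 and 4. The list medians of 0.08 with stearate and 0.07 with oleate lay near those of all genes. The falls, named to complete the counts after their values were seen, were those of PLK2 (-0.27) and EPS8L2 (-0.19) with stearate and PERP (-0.10) with oleate. SESN2, a sestrin that is also induced by ATF4, rose the most with stearate (0.38), ahead of TIGAR, a phosphatase that diverts glucose carbon from glycolysis (0.34), and ANKRA2 (0.30). With oleate the largest rises were those of DRAM1, a lysosomal autophagy protein (0.28), AEN, an apoptosis-linked nuclease (0.26), and ANKRA2 (0.25). DRAM1 and ANKRA2 were no longer called with oleate after size factor scaling, at adjusted p = 0.057 and 0.16. Between the fatty acids 3 were higher with stearate and 5 lower, or 7 and 4 after size factor scaling, and EPS8L2 (-0.36), PLK2, a polo-like kinase (-0.31), and AEN (-0.27) were the lowest.

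Paralogs that share a function with a member gave a comparison within families, and 9 of 11 were tested. With stearate 2 rose, SESN2 (0.38) and RRM2 (0.37, adjusted p = 0.00076), the S-phase counterpart of RRM2B, which stood at 158.5 TPM in the controls and 205.4 TPM with stearate. In the same comparison 3 fell, CDKN1C, the p57 inhibitor (-0.34), GADD45B (-0.31, adjusted p = 1.1e-05) and BOK, a BCL2 family relative of BAX (-0.16). With oleate 1 paralog rose, MDM4, and 1 fell, CDKN1C (-0.21), and after size factor scaling 0 rose and 2 fell. CDKN1B, the p27 inhibitor, was at 0.03 with stearate and 0.05 with oleate, and BAK1, the partner effector of BAX, at -0.02 and 0.07, with adjusted p from 0.19 to 0.71. Set against oleate, stearate left 2 paralogs lower, GADD45B (-0.36), like GADD45A, and BOK (-0.19), whereas 3 were higher, SESN2 (0.25), TP53INP2 (0.28) and RRM2 (0.20).

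Genes of the G2/M program that p21 represses indirectly were all measured, 20 of 20. With stearate 2 rose and 4 fell, with a list median of -0.0039, and after size factor scaling 0 rose and 7 fell. UBE2C, a ubiquitin-conjugating enzyme of mitotic exit, had a log2 fold change of -0.24, CDC20, the activator of the anaphase-promoting complex, -0.17, and CDC25C, a phosphatase of mitotic entry, 0.19. The CDC25C call was lost after size factor scaling (adjusted p = 0.081). With oleate 6 rose and 3 fell, led by BUB1B (0.26), PRC1 (0.20) and TOP2A (0.16), and after size factor scaling 2 rose and 6 fell, with TOP2A no longer called (adjusted p = 0.37). Between the fatty acids 2 were higher and 5 lower with stearate, or 4 and 3 after size factor scaling, and the largest falls were those of PRC1 (-0.26), BUB1B (-0.21) and TOP2A (-0.19).

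Among 14 tested binding partners of the members' products, 4 rose and 3 fell with stearate, or 3 and 3 after size factor scaling, and 8 rose and 0 fell with oleate, led by MAP3K4 (0.23), PCNA (0.22) and CCND1 (0.20). CCNE2, an E-type cyclin bound by p21, rose by 0.67 with stearate, MAP3K4, the kinase that GADD45 proteins activate, by 0.33, and PCNA, the replication clamp bound by p21 and GADD45A, by 0.27. PCNA was at 89.1 ± 6.10 TPM in the controls, 107.8 ± 5.66 TPM with stearate and 103.8 ± 4.604 TPM with oleate (SD, n = 6 each). RRM1, the large subunit that pairs with RRM2B, rose by 0.12 with stearate and 0.15 with oleate, and was not called with stearate after size factor scaling (0.06, adjusted p = 0.10). None of the 8 rises with oleate was called after size factor scaling, where 0 of 14 partners were called. CCND1 (-0.30) and CFLAR, an inhibitor of death receptor signalling downstream of FAS (-0.29), were lower with stearate than with oleate, and CCNE2 (0.40) was higher.

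All 11 other transcription factors known to act on member genes were tested, and 5 rose and 2 fell with stearate, or 3 and 4 after size factor scaling. EGR1, an early growth response factor, rose by 1.08, from 19.3 TPM in the controls to 42.3 TPM, and ATF3, a stress factor downstream of ATF4, by 0.36. MYC, which represses CDKN1A, had a log2 fold change of -0.24. With oleate 8 rose and 0 fell, or 3 and 2 after size factor scaling, led by SP1 (0.38), EGR1 (0.31) and FOXO3 (0.29), of which FOXO3 was not called after size factor scaling (adjusted p = 0.054). Between the fatty acids 4 were higher with stearate, led by EGR1 (0.78), and 4 lower, led by KLF6 (-0.44) and MYC (-0.36). CAY10566 gave 0 calls in each of these 6 lists.

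**Figure D5:**
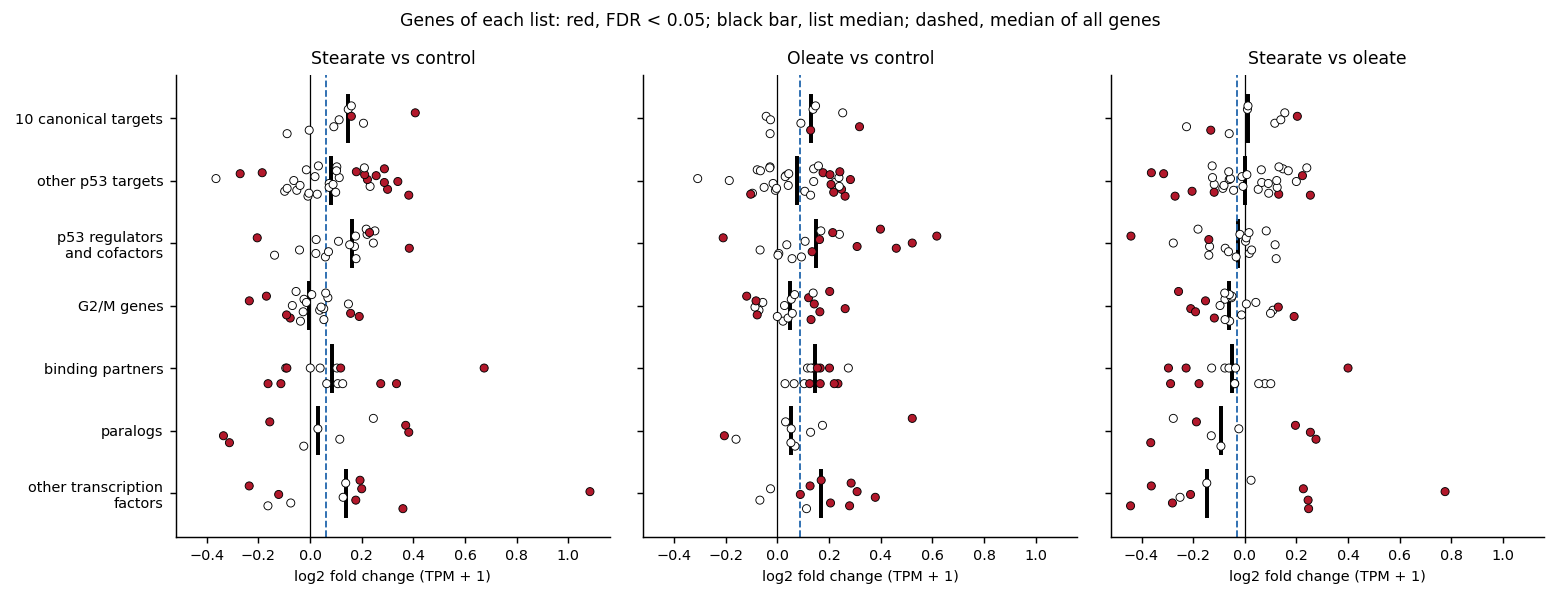
Log2 fold change on log2(TPM + 1) (x axis) of the tested genes of each list (y axis) in the 3 fatty acid comparisons; each circle is a gene, red at an FDR under 0.05, black bars are list medians and the dashed line is the median of all genes. The 9 tested canonical targets span -0.09 to 0.41 with stearate, and EGR1 at 1.08 stands farthest out among the transcription factors.

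Some members overlap neighbours in the annotated spans of the genes, introns included. MDM2 overlaps a processed pseudogene, ENSG00000256664, on its own strand over 439 bases, which the table lists at a mean of 15.4 TPM, and FAS overlaps STAMBPL1 on its own strand, at a mean of 12.4 TPM. RSEM, which the authors used, divides reads that fit several genes by an estimate. Whether any reads of MDM2 or FAS also fit these neighbours was not tested. Their levels may therefore be less certain than those of members without such an overlap.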

How the data were processed

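RNA sequencing was performed on 18 OVCAR5 samples, 3 in each of 6 conditions named by the labels. Per the labels, the authors made stranded mRNA libraries, and per the study's methods they sequenced 100-base paired reads and used Trim Galore for trimming, STAR 2.7.1a for alignment to GRCh38 and RSEM for quantification. The values the authors deposited are TPM per gene, each sample summing to about 1000000, so that read depth is not kept and no counting error can be given. The study's methods give triplicate treatments in multi-well plates and state for in vitro work in general a minimum of 3 independent experiments, but not for these samples whether the triplicates were made on separate occasions. If they were not, the p-values measure the spread between these samples, which may be technical.

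One line without a gene name was dropped. Genes with a mean of at least 1 TPM were tested on log2(TPM + 1), which understates the change of low genes, with limma 3.58.1 in R 4.3.3 (lmFit, eBayes with trend, Benjamini-Hochberg adjustment), the tool and FDR of 0.05 and fold limit being those of the study. Fatty acid groups of 6 were compared in a 3-group model. CAY10566 was tested over 9 against 9 samples with fatty acid as a covariate, and within groups, as interactions and by an F test in a 6-condition model. The fit was tested on simulated data. Coordinates come from GENCODE release 44 and sequences from RefSeq starts on GRCh38, where 15 of 15 promoter sequences of the members were identical to the genome used. Figures used matplotlib 3.10.9 in Python 3.11.15.

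The members and gene lists were chosen with earlier results of these data known. All 10 members are named. Of the other lists, the text names the 3 called genes with the largest change in each fatty acid comparison, the paralogs, MDM4, PPM1D, PCNA and RRM1 (1 other gene that the rule names is not reported here), and for the likeness of patterns the 5 genes with a mean of at least 5 TPM nearest to the member with the widest condition means. Alternatives were a pseudocount of 0.1, no filter, a mean of at least 5 TPM, median-of-ratios size factors, no variance trend, the replicate block, the trend on transcript length and GC content removed, CAY10566 as a covariate, each arm of CAY10566 alone, and each sample left out.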

Additional observations from a re-analysis of the deposited data

Results flagged for a closer look

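In the 27 groups of 6 samples formed by the 9 tested members and the 3 fatty acid settings, 2 had a single sample whose gap to its nearest neighbour was large for the range of its group by Dixon's ratio, where chance gives about 1 in 20. Control DMSO replicate 1 had 30.43 TPM of MDM2, against 25.26 to 26.31 TPM in the other 5 controls, a ratio of 0.797. Control CAY10566 replicate 3 had 3.63 TPM of ZMAT3, against 2.3 to 2.68 TPM in the other 5, a ratio of 0.714. The cause of either value was not tested.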

How the results depend on the processing

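The 6 calls made for members in the fatty acid comparisons held in all 18 fits that left out 1 sample. With 1 sample left out, members called ranged from 2 to 4 for stearate against control (4 without stearate+CAY10566 replicate 1, which added MDM2 and BBC3, or replicate 3, which added BAX and BBC3), from 2 to 4 for oleate against control (4 without oleate+CAY10566 replicate 3, which added RRM2B and BBC3), and from 3 to 5 for any difference among conditions (5 without CAY10566 replicate 3). The shares of all genes called in the same fits ranged from 14.5% to 26.8%, 17.8% to 34.2% and 13.7% to 31.8%. CAY10566 as a covariate gave 4 members for stearate, with 19.2% of all genes called. The CAY10566 samples alone gave 1 member for stearate, 0 for oleate and 1 between the fatty acids, where the DMSO samples alone also gave 1, with fewer samples in these fits. Size factor scaling left 1 member among the 6 conditions, with 20.9% of all genes called. Over all genes, the CAY10566 samples alone gave 244, 4 and 508 calls in these 3 comparisons instead of 2679, 3541 and 2912, the DMSO samples alone gave 1435 between the fatty acids, and removing the length and GC trend gave 1610 for oleate (1459 with the replicate block as well).

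Some uncalled estimates changed sign. Removing the length and GC trend, with or without the replicate block, gave -0.012 for SESN1 and -0.050 for ZMAT3 with stearate, and -0.053 for MDM2 and -0.17 for FAS with oleate. In the DMSO samples alone GADD45A was 0.082 with stearate and SESN1 0.029 with oleate, and in the CAY10566 samples alone MDM2 was -0.045 and BBC3 -0.067 between the fatty acids. With 1 sample left out, the ranges were -0.021 to 0.020 for GADD45A with stearate, -0.072 to 0.017 for SESN1 with oleate, -0.040 to 0.072 for MDM2 and -0.033 to 0.035 for BBC3 between the fatty acids, and -0.031 to 0.048 for ZMAT3 and -0.084 to 0.011 for RRM2B with CAY10566. The cause was not tested. Of 1009 member estimates under alternatives in the 3 fatty acid comparisons and CAY10566 over all samples, 941 kept their direction and side of the threshold. Of the 45 member estimates of CAY10566 within a fatty acid group or of an interaction, 18 took both signs over the alternatives and 0 were called in any.

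Pairing of the samples by replicate number was not shown. Same-numbered samples correlated between -0.18 and 0.10 over 45 pairs (median 0.012). Samples with different numbers correlated between -0.12 and 0.17 over 90 pairs (median -0.011). With 3 numbers to choose from, 9 of 18 samples correlated best with their own. The replicate block gave 2, 2 and 2 members in the fatty acid comparisons, as without it, and 2504, 3336 and 2782 genes in all. Depth is unknown in TPM, so the low genes TP53INP1, SESN1 and ZMAT3 carry a counting error that cannot be given.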
